A study of Mus musculus with 6 samples.

Results

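The insulin-like growth factor (IGF) genes Igf1, Igf1r, Irs1, Irs2, Igfbp2, Igfbp3, Igfbp4, Igfbp5, Igfbp6 and Igfbp7 were compared among 3 immortalized mouse embryonic fibroblast (MEF) lines that lack different sets of circadian repressors. The 10 genes were chosen by name, as a ligand, its receptor, the receptor's docking proteins and the IGF-binding proteins, and each had 1 row among the 27179 genes counted. Of the 10 genes, 9 averaged 100 or more normalized counts over the 6 libraries and were tested together with the other genes past that minimum, 11934 in all. Igfbp5 had a mean of 88.4 and was described by its counts.

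IGF1 and IGF2 are secreted growth factors that bind IGF1R, a receptor tyrosine kinase. The activated receptor phosphorylates the docking proteins IRS1 and IRS2, which recruit PI3K and so lead to AKT, mTOR and FOXO. The IGF-binding proteins are secreted carriers that hold IGFs outside the cell, keep them from the receptor or deliver them to it, and are themselves cut by proteases such as PAPPA. Fibroblasts are a known source of IGF1 and of several of these carriers.

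RNA was poly-A enriched from 2 independent preparations of each line and sequenced. By genotype, Cry/Per_KO cells lack Cry1, Cry2, Per1 and Per2, Per/Nr1d_KO cells lack Per1, Per2, Nr1d1 and Nr1d2, and Cry/Per/Nr1d_KO cells lack all 6 genes, so every line lacked Per1 and Per2, and no wild-type line was included. All lines are labelled as C57BL/6, grew in DMEM with fetal bovine serum, and no treatment is recorded. Cry/Per/Nr1d_KO is 1 clone made from Cry/Per_KO cells by lentiviral CRISPR/Cas9, whereas Per/Nr1d_KO is a separately derived line. Genotype therefore cannot be told apart from the identity of a clone or line, and the p-values measure only the spread between 2 preparations of 1 line.

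For 2 of the 3 pairs, the recorded genotype disagreed with the name given to the deposited counts. They gave opposite answers on which pair was Cry/Per_KO and which was Cry/Per/Nr1d_KO, and the title of the pair with the 6-gene genotype carried the abbreviation PN_KO. Groups follow the recorded genotype here, and the pairs in doubt are called Cry/Per_KO-labelled and Cry/Per/Nr1d_KO-labelled. If the names of these 2 pairs are exchanged, the comparison between them changes its sign and the 2 comparisons with Per/Nr1d_KO change places. Transcripts of the 6 targeted genes were present at 1004 to 9337 normalized counts in every library, so their presence does not identify a line, but their levels differed. Cry1, whose transcription NR1D proteins are known to repress, had 1698 and 1724 normalized counts in the Cry/Per/Nr1d_KO-labelled libraries and 5323 and 5478 in the Cry/Per_KO-labelled ones, the pair that keeps Nr1d1 and Nr1d2 by its label (log2 fold change 1.66, SE 0.0526). Nr1d1 (1.56, SE 0.0528) and Per1 (0.90, SE 0.0565) were also called higher there, and Nr1d2 (0.65), Per2 (0.45) and Cry2 (0.22) differed in the same direction within the 75% limit defined below. The level of Cry1 goes against the genotype labels of these 2 pairs. The study reports Cry1, Nr1d1, Nr1d2, Per1 and Per2 mRNA as lower in Cry/Per_KO than in Cry/Per/Nr1d_KO cells, the reverse of the labelled levels. Each direction below that involves these pairs therefore holds for the labels only and is exchanged under the names of the deposited counts.

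Library totals ran from 53764390 to 85927236 counts, and log2 CPM values of the 2 libraries of a line correlated across genes with r = 0.998 in each line, a description over genes that are not independent. Counts scaled by edgeR's TMM method to the mean library size are called normalized counts. Of 12 fibroblast markers, 9 averaged 100 or more normalized counts, while Thy1 was at 0 to 6.21, Lum at 0 to 9.77 and Dcn at 43.4 to 139. The fibroblast markers did not move together. Compared with the Cry/Per/Nr1d_KO-labelled libraries, Col1a1, Col1a2, Col3a1, Col6a1 and Fn1 were called higher in Per/Nr1d_KO, by 1.88-fold to 52.8-fold, whereas S100a4, Pdgfra, Pdgfrb and Vim were called lower, by 1.82-fold to 7.11-fold. Between the 2 pairs in doubt, Col3a1 (-1.49, SE 0.0679) and S100a4 (-1.14, SE 0.0689) were called lower in the Cry/Per_KO-labelled libraries and the other tested fibroblast markers were not called. In the Cry/Per_KO-labelled libraries the listed endothelial markers summed to 49.0 to 57.9 normalized counts against 125 to 131, and the muscle markers to 47.9 to 49.1 against 164 to 201. The fibroblast sum, carried by Fn1 and the type I collagens, was at 1780840 to 1800670 in Per/Nr1d_KO libraries, against 892451 to 1035630 in the others. No epithelial, endothelial or muscle marker of those listed reached that mean, and the other lists had 1 such gene each. The epithelial marker Cdh1 was at 100.1 and 110.5 in Per/Nr1d_KO libraries against 7.99 to 27.8 in the others, while Epcam was at 8.84 to 33.3 and Krt8, Krt18, Krt5 and Krt14 were at 0 to 6.34 over all libraries, and the 6 genes summed to 137 to 141 against 17.7 to 64.4. Of 4 adipocyte markers, Fabp4 was at 1468 and 1579 in Per/Nr1d_KO libraries against 109 to 185 in the others and Cebpa at 161 and 185 against 5.56 to 47.9, while the defining markers Adipoq and Plin1 were at 0 to 6.87 in all libraries. Of 4 haematopoietic markers, Cd68 was at 258 and 276 in Per/Nr1d_KO libraries against 109 to 161, while Ptprc, Adgre1 and Cd3e were at 0 to 3.95 in all libraries. The part of these marker differences in the results below was not tested. In bulk RNA, fewer cells with a transcript and less of it per cell cannot be told apart.

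The promoters of the 10 genes, 11 windows in RefSeq for GRCm38.p6 (the assembly behind mm10), were read from 250 bases before to 50 bases after the annotated start. CACGTG is the E-box bound by CLOCK-BMAL1, which the lines' missing repressors act on, and it reads the same on both strands. It occurred in the windows of 3 of the 10 genes, Igfbp2, Irs1 and Irs2, against 7.15% of 32851 mouse promoter windows of the same length. AGGTCA, searched on both strands, is the core of the sites bound by NR1D proteins, and it occurred for Igf1 and Igf1r, against 16.26% of windows. A match in letters is a description and does not show binding. The E-box windows are shown because the levels of these 3 genes stood in different orders among the lines, and the Igf1 window because it is the ligand with an AGGTCA match. The 6 letters of the match are in capitals, and each sequence is given 5′ to 3′ on the strand of its gene.
Igfbp2 (chr1:72824230-72824529, plus strand): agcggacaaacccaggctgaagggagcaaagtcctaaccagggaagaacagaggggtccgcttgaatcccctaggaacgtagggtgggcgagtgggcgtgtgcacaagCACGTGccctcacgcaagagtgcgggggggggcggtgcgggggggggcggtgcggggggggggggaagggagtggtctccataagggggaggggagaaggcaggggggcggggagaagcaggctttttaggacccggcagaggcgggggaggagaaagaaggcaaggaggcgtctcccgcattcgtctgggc
Irs1 (chr1:82291390-82291689, minus strand): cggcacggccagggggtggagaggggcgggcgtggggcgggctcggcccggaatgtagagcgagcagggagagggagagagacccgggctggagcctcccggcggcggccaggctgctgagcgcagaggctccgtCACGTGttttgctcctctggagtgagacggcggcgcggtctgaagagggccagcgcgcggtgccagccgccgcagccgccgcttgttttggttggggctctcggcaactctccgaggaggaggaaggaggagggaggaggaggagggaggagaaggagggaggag
Irs2 (chr8:11008880-11009179, minus strand): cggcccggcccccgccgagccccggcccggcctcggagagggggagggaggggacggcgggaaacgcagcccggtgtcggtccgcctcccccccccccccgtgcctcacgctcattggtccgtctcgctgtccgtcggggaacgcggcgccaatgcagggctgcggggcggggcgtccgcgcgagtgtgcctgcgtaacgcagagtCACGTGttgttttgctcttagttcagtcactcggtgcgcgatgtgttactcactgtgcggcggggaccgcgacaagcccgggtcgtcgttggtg
Igf1 (chr10:87860861-87861160, plus strand): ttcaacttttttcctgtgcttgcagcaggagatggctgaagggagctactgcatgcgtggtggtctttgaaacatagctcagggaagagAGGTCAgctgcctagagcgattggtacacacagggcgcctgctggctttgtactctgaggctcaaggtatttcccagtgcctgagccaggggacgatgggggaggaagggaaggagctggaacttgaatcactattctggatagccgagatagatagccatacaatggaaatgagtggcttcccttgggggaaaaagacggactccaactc
The capitals begin 142 bases before the start of Igfbp2, 115 before that of Irs1, 44 before that of Irs2 and 161 before the start that the promoter table uses for Igf1. That start lies inside the span of the Igf1 gene given below, downstream of its first annotated base. The starts used for the other windows shown are at the first base of their genes.

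Differences are log2 fold changes with a standard error from edgeR's quasi-likelihood test on all 6 libraries. A gene was called where its Benjamini-Hochberg adjusted p over all genes tested was under 0.05 and the level in one group exceeded that in the other by more than 75%, a log2 fold change of 0.81 in size. The second condition is called the fold limit.

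Igf1 encodes the ligand itself (Entrez Gene 16000, chr10:87858265-87937047, GRCm38.p6). It had 816 and 906 normalized counts in the Cry/Per/Nr1d_KO-labelled libraries, 464 and 402 in Per/Nr1d_KO libraries, and 128 and 146 in the Cry/Per_KO-labelled ones. The 3 lines did not overlap, and each step in this order was called. Igf1 was 6.24-fold lower in the Cry/Per_KO-labelled libraries than in the Cry/Per/Nr1d_KO-labelled ones (log2 fold change -2.64, SE 0.116, adjusted p = 3e-11). In Per/Nr1d_KO libraries it was 2.0-fold lower than in the Cry/Per/Nr1d_KO-labelled ones (-1.0, SE 0.0977, adjusted p = 1.91e-07) and 3.12-fold higher than in the Cry/Per_KO-labelled ones (1.64, SE 0.124, adjusted p = 6.14e-09). Scaled per kilobase of exon and for depth (FPKM), which allows levels of different genes to be compared, Igf1 was low, with line means of 1.32, 0.663 and 0.210 in the order above.

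Igf1r encodes the receptor (chr7:67952257-68233668) and had the narrowest range over the lines among the 9 tested genes. Its normalized counts were 8661 and 8984 in the Cry/Per/Nr1d_KO-labelled libraries, 8673 and 8904 in the Cry/Per_KO-labelled ones, and 7775 and 7845 in Per/Nr1d_KO libraries. The first 2 pairs overlapped, and their difference was not past the threshold (adjusted p = 0.917, log2 fold change -0.0052, SE 0.0431). Per/Nr1d_KO libraries lay below both pairs, with log2 fold changes of -0.18 (SE 0.0432, adjusted p = 0.00183) and -0.17 (SE 0.0433, adjusted p = 0.00202), which are within the fold limit. In FPKM the receptor was at 7.06 to 7.98 in the line means, above its ligand Igf1 in every line.

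The docking proteins took opposite orders. Irs1 (chr1:82233105-82291439) had 5205 and 5259 normalized counts in the Cry/Per/Nr1d_KO-labelled libraries, 6115 and 6234 in the Cry/Per_KO-labelled ones, and 3749 and 3709 in Per/Nr1d_KO libraries. Its pairs did not overlap, but no difference passed the fold limit, with the greatest between Per/Nr1d_KO and the Cry/Per_KO-labelled libraries (log2 fold change -0.73, SE 0.0453, adjusted p = 5.99e-10). The other differences of Irs1 were 0.24 (SE 0.0446) between the first 2 pairs and -0.49 (SE 0.0454) between Per/Nr1d_KO and the Cry/Per/Nr1d_KO-labelled libraries. Irs2 (chr8:10984681-11008929) was highest in Per/Nr1d_KO libraries at 3552 and 3328, against 1979.9 and 1946 in the Cry/Per/Nr1d_KO-labelled libraries and 1348 and 1574 in the Cry/Per_KO-labelled ones. It was 2.35-fold higher in Per/Nr1d_KO libraries than in the Cry/Per_KO-labelled ones (log2 fold change 1.23, SE 0.0701, adjusted p = 1.98e-10). Against the Cry/Per/Nr1d_KO-labelled libraries its log2 fold change of 0.81 (SE 0.0684, adjusted p = 3.59e-08) only just passed the limit. That call was lost under 6 of 13 other settings, where the value ranged down to 0.71. In FPKM, Irs1 exceeded Irs2 in the Cry/Per/Nr1d_KO-labelled (8.68 against 4.71) and Cry/Per_KO-labelled libraries (10.2 against 3.51), whereas Irs2 was above Irs1 in Per/Nr1d_KO (8.26 against 6.19). In normalized counts Irs1 was above Irs2 in every library. The order in Per/Nr1d_KO therefore rests on the exon lengths used, 9144 bases for Irs1 and 6323 for Irs2. Of the exon bases of Irs1, 30.86% also lie in exons of Gm9747 on the opposite strand, and the strand setting of the counting is not stated.

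**Figure D1:**
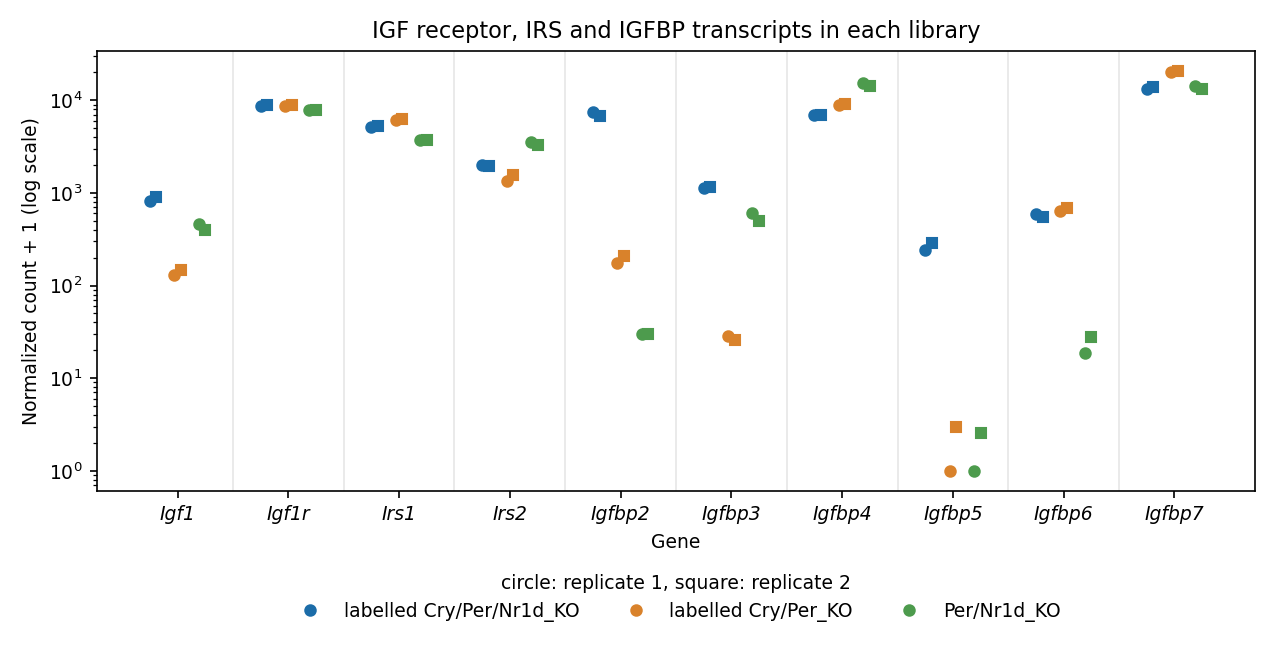
Normalized counts plus 1 on a log axis for the 10 genes, with 1 point per library, coloured by line as labelled. Igf1r and Igfbp7 stay within a narrow band, whereas Igfbp2 runs from 29.2 to 7385 and Igfbp5 is at 0 to 1.96 outside the Cry/Per/Nr1d_KO-labelled libraries.

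Among the tested carriers, Igfbp2 had the widest range over the lines. Igfbp2 (chr1:72824480-72852474), whose product binds both IGFs, had 7385 and 6713 normalized counts in the Cry/Per/Nr1d_KO-labelled libraries, 176 and 205 in the Cry/Per_KO-labelled ones, and 29.2 and 29.2 in Per/Nr1d_KO libraries. Compared with the first pair, it was 36.9-fold lower in the Cry/Per_KO-labelled libraries (log2 fold change -5.20, SE 0.0835, adjusted p = 8.91e-16) and 241-fold lower in Per/Nr1d_KO (-7.91, SE 0.110, adjusted p = 1.29e-17). The last 2 pairs also differed, by -2.71 (SE 0.173, adjusted p = 8.01e-10).

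Igfbp5 (chr1:72858065-72874865), a carrier that also binds extracellular matrix, followed the same contrast at a lower level. It had 242 and 284 normalized counts in the Cry/Per/Nr1d_KO-labelled libraries, 0 and 1.96 in the Cry/Per_KO-labelled ones, and 0 and 1.58 in Per/Nr1d_KO. These are 529 reads in the first pair and 2 in each of the others, and a library with no read could still hold up to 3 by counting error. The ratio of the scaled counts was 250 (exact 95% counting interval 68.9 to 2071) against the Cry/Per_KO-labelled libraries and 268 (73.9 to 2222) against Per/Nr1d_KO. The intervals cover counting error only. With a minimum mean of 10 normalized counts, Igfbp5 enters the test only through the pair where it is high. No p-value is therefore given for it, and the counts stand as a description.

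Igfbp2 and Igfbp5 are neighbours on chromosome 1, with 5590 bases and no tested gene between them. The nearest tested genes around the pair, Smarcal1 and Rpl37a on one side and Arpc2 beyond Tns1 on the other, were not called in any comparison. The last 2 are far from the pair, since Igfbp5 ends at base 72874865 and Tns1 begins at base 73910232. Tns1, a focal adhesion gene, was called in all 3. It was lower in the Cry/Per_KO-labelled libraries than in the Cry/Per/Nr1d_KO-labelled ones (-1.52), as Igfbp2 was, but higher in Per/Nr1d_KO than in either (1.98 and 3.50).

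Igfbp3 (chr11:7206086-7215498) encodes the main IGF carrier of blood. It had 1140.0 and 1164 normalized counts in the Cry/Per/Nr1d_KO-labelled libraries, 606 and 492 in Per/Nr1d_KO libraries, and 27.8 and 24.5 in the Cry/Per_KO-labelled ones. The order of the lines was that of Igf1, with a wider range. Igfbp3 was 43.9-fold lower in the Cry/Per_KO-labelled libraries than in the Cry/Per/Nr1d_KO-labelled ones (log2 fold change -5.46, SE 0.153, adjusted p = 2.61e-13). It was 20.7-fold higher in Per/Nr1d_KO than in the Cry/Per_KO-labelled libraries (4.37, SE 0.167, adjusted p = 1.55e-12) and 2.12-fold lower than in the Cry/Per/Nr1d_KO-labelled ones (-1.08, SE 0.0936, adjusted p = 4.55e-08).

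Igfbp6 (chr15:102144186-102149512), whose product prefers IGF2, was low in 1 line only among the 3. It had 592 and 554 normalized counts in the Cry/Per/Nr1d_KO-labelled libraries, 633 and 692 in the Cry/Per_KO-labelled ones, and 17.7 and 26.8 in Per/Nr1d_KO libraries. The last pair differed 1.51-fold between its libraries, the widest replicate gap among the tested members. Igfbp6 was 24.5-fold and 28.3-fold lower in Per/Nr1d_KO than in the other two pairs (log2 fold changes -4.62, SE 0.159, and -4.83, SE 0.157; adjusted p = 5.87e-13 and 2.13e-13). Between those pairs the difference missed the threshold (0.21, SE 0.0938, adjusted p = 0.0549).

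Igfbp4 and Igfbp7 were abundant in every library. Igfbp4 (chr11:99040005-99052655), an inhibitory carrier and the best known substrate of PAPPA, had 6923 and 7019.9 normalized counts in the Cry/Per/Nr1d_KO-labelled libraries, 8833 and 9162 in the Cry/Per_KO-labelled ones, and 15192 and 14323 in Per/Nr1d_KO. Its rise of 2.12-fold in Per/Nr1d_KO over the Cry/Per/Nr1d_KO-labelled libraries was called (log2 fold change 1.08, SE 0.0455, adjusted p = 6.49e-12), and the other differences of 0.37 and 0.71 were within the fold limit. Of the 50-base stretches of Igfbp4 transcripts, 1.72% also occur in other genes, and no such stretch was found for Igf1, Igf1r, Igfbp2, Igfbp3, Igfbp5 or Igfbp6. Igfbp7 (chr5:77349240-77408045), a related secreted protein with low affinity for IGFs, had 13403 and 13888 normalized counts in the Cry/Per/Nr1d_KO-labelled libraries, 20316 and 20847 in the Cry/Per_KO-labelled ones, and 14193 and 13158 in Per/Nr1d_KO. The first and last pairs overlapped (0.0026, SE 0.0464, adjusted p = 0.962). The libraries labelled Cry/Per_KO lay above both, by 1.51-fold each, within the fold limit. Of the exon bases of Igfbp7, 7.03% also lie in exons of Polr2b on the opposite strand.

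Per kilobase of exon, Igfbp7 made up most of the IGFBP transcripts in all 6 libraries. Of the summed FPKM of the 6 carriers, Igfbp7 took 63.0% and 65.2% in the Cry/Per/Nr1d_KO-labelled libraries, 86.3% and 86.0% in the Cry/Per_KO-labelled ones, and 76.2% and 76.0% in Per/Nr1d_KO. The next carrier differed by line. Igfbp2 came next in the Cry/Per/Nr1d_KO-labelled libraries with 22.7% and 20.6%, but took 0.489% and 0.554% in the Cry/Per_KO-labelled ones and 0.103% and 0.110% in Per/Nr1d_KO. Igfbp4 was next in the Cry/Per_KO-labelled libraries with 10.3% in each, and in Per/Nr1d_KO with 22.3% and 22.6%. The summed FPKM moved less than its parts, at 267 and 268, 296 and 305, and 234 and 217 for the Cry/Per/Nr1d_KO-labelled, Cry/Per_KO-labelled and Per/Nr1d_KO pairs.

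**Figure D2:**
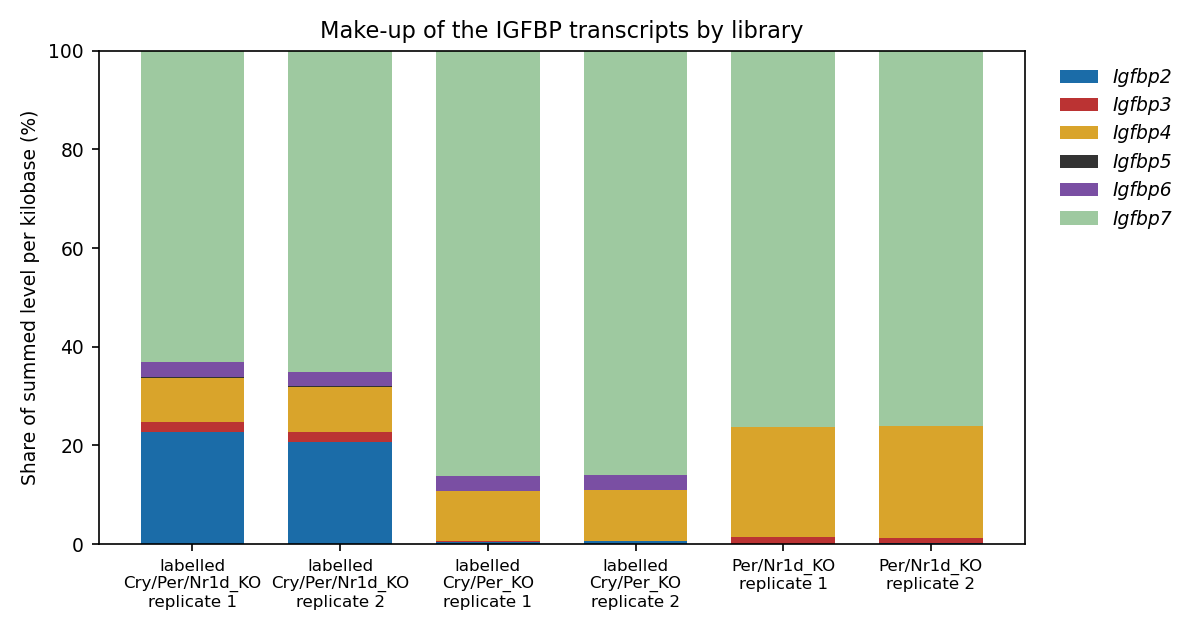
Share of each IGFBP gene in the summed level per kilobase (FPKM) of Igfbp2 to Igfbp7, in percent, with 1 stacked bar per library. Igfbp7 fills 63.0% to 86.3% of each bar, and the Igfbp2 segment of 20.6% to 22.7% is visible only in the Cry/Per/Nr1d_KO-labelled libraries.

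Counted over the genes, the 3 comparisons differed in how many were called, and they share libraries, so they are not independent. Between the Cry/Per_KO-labelled libraries and the Cry/Per/Nr1d_KO-labelled ones, 3 of the 9 tested members were called, all lower (Igf1, Igfbp2 and Igfbp3), where 16.8% of all genes tested were called, 7.86% higher and 8.95% lower. Between Per/Nr1d_KO and the Cry/Per/Nr1d_KO-labelled libraries, 6 of 9 were called, with Irs2 and Igfbp4 higher and Igf1, Igfbp2, Igfbp3 and Igfbp6 lower, where 20.7% of all genes were called, 11.3% higher and 9.35% lower. Between Per/Nr1d_KO and the Cry/Per_KO-labelled libraries, 5 of 9 were called, with Igf1, Irs2 and Igfbp3 higher and Igfbp2 and Igfbp6 lower, where 29.0% of all genes were called, 15.2% higher and 13.8% lower. By adjusted p alone, 7, 8 and 9 of the 9 passed in these comparisons, where 76.4%, 75.8% and 82.1% of all genes did, so that an adjusted p by itself sets few genes apart in these lines. With the 2 pairs named as their counts were deposited, Igf1, Igfbp2 and Igfbp3 are instead higher in Cry/Per_KO than in Cry/Per/Nr1d_KO, Per/Nr1d_KO differs from Cry/Per/Nr1d_KO in 5 of the 9 genes and from Cry/Per_KO in 6, and the shares of all genes change places likewise. The median size of the log2 fold change over the 9 genes was 0.42, 1.0 and 1.23, against 0.34, 0.34 and 0.46 over all genes tested. The signed medians were -0.0052, -0.49 and -0.17, against -0.0033, 0.011 and 0.035 over all genes tested. The genes that were tested exclude Igfbp5, which was below the minimum because 2 of the lines were near 0.

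**Figure D3:**
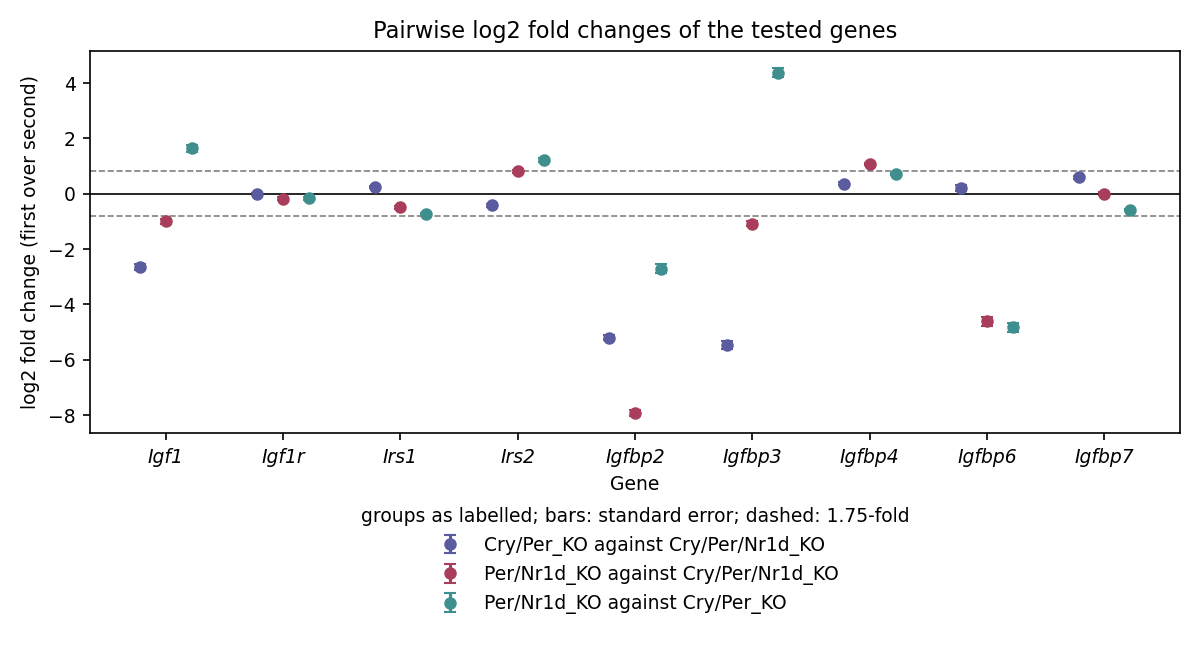
Log2 fold changes of the 9 tested genes in the 3 comparisons, with bars for the standard error and dashed lines at the fold limit. Igfbp2 is below the lower line in all 3 comparisons (-5.20, -7.91 and -2.71), Igfbp3 changes side (-5.46, -1.08 and 4.37), and Igf1r stays near 0 in all 3.

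Chromosomes as a whole differed in level between these lines, and the medians of the chromosomes that carry the 9 tested genes ran from -0.29 to 0.35 on the log2 scale. With each chromosome's median subtracted, the log2 fold changes of Igfbp2 were -5.17, -8.19 and -2.97, and those of Igf1 were -2.53, -0.97 and 1.54. Irs1 then passed the fold limit between Per/Nr1d_KO and the Cry/Per_KO-labelled libraries (-0.99), and Irs2 no longer did against the Cry/Per/Nr1d_KO-labelled ones (0.71).

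Beyond these genes, 67 others of the IGF and insulin pathway were listed, of which 57 were tested. In the comparison of the Cry/Per_KO-labelled libraries with the Cry/Per/Nr1d_KO-labelled ones, 7 of 57 (12.3%) were called and all were lower. In that of Per/Nr1d_KO with the Cry/Per/Nr1d_KO-labelled libraries, 13 of 57 (22.8%) were called, 6 higher and 7 lower. In that of Per/Nr1d_KO with the Cry/Per_KO-labelled libraries, 17 of 57 (29.8%) were called, 11 higher and 6 lower. Under the names of the deposited counts the 7 are higher and the counts of 13 and 17 change places. These shares lie near those of all genes given above. The counts per list below are descriptions, to be read beside the 16.8%, 20.7% and 29.0% of all genes called in the 3 comparisons, and differences between the lists were not tested.

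Of the 9 ligand and receptor genes, 6 were tested, and 1, 2 and 3 of them were called. Igf2, the second ligand of IGF1R (chr7:142650768-142666816), had 515 and 536 normalized counts in the Cry/Per/Nr1d_KO-labelled libraries, 2.23 and 6.87 in the Cry/Per_KO-labelled ones, and 35.5 and 28.4 in Per/Nr1d_KO. It thus took the order of Igf1, with log2 fold changes of -6.77 (SE 0.232), -4.07 (SE 0.161) and 2.70 (SE 0.422). Igf2 reached the minimum mean only through the Cry/Per/Nr1d_KO-labelled pair. It was called in every comparison and is included in the counts above, but like those of Igfbp5 its values stand as a description. From 9 reads in the Cry/Per_KO-labelled libraries, the ratio between the first 2 pairs was 112 (exact 95% counting interval 58.6 to 245). Without Cry/Per_KO-labelled replicate 2, the log2 fold changes that involve this pair were -7.80 and 3.74. Igf2r, which clears IGF2, had 17105 and 17142 normalized counts, 11564 and 11301, and 29114 and 29592 in the same order, and was called only between Per/Nr1d_KO and the Cry/Per_KO-labelled libraries (1.36, SE 0.0410). Igf2bp2, an RNA-binding protein named for its Igf2 mRNA target, was lower in Per/Nr1d_KO than in both others (-1.07, SE 0.0508, and -0.98, SE 0.0508). No comparison called Insr, the insulin receptor, which stood at 4103 to 6037 normalized counts. Ins1 and Ins2 had 0 counts in every library, so up to 3 in each cannot be told from none.

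The carriers' proteases and their inhibitors held the largest log2 fold changes of the 57 genes in both comparisons with Per/Nr1d_KO. Of 10 genes in that list 6 were tested, and 5, 4 and 5 of them were called in the 3 comparisons. Pappa, the protease that cuts IGFBP4, had 180 and 162 normalized counts in the Cry/Per/Nr1d_KO-labelled libraries, 35.6 and 40.3 in the Cry/Per_KO-labelled ones, and 12405 and 12289 in Per/Nr1d_KO. It was 71.7-fold higher in Per/Nr1d_KO than in the Cry/Per/Nr1d_KO-labelled libraries (6.16, SE 0.0679, adjusted p = 1.81e-18) and 323-fold higher than in the Cry/Per_KO-labelled ones (8.34, SE 0.0848, adjusted p = 5.34e-19). Between the latter pairs it was lower in the Cry/Per_KO-labelled ones (-2.17, SE 0.144).

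Pappa2, the related protease that cuts IGFBP5 and IGFBP3, was lowest in Per/Nr1d_KO, where Pappa was highest, with 5583 and 5912 normalized counts in the Cry/Per/Nr1d_KO-labelled libraries, 131 and 101 in the Cry/Per_KO-labelled ones, and 24.1 and 26.8 in Per/Nr1d_KO. Its log2 fold changes were -5.64 (SE 0.0928), -7.79 (SE 0.116) and -2.16 (SE 0.199). Averaged over the libraries outside the Cry/Per/Nr1d_KO-labelled pair, Pappa2 lay under the minimum mean, so it entered the test only through that pair. It was called in every comparison and is included in the counts of its list, but its values stand as a description. The log2 fold changes of Igfbp2 were -5.20, -7.91 and -2.71. Both genes are on chromosome 1, with Pappa2 at chr1:158711727-158960451.

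The inhibitors of PAPPA, the stanniocalcins, also differed. Stc2 was lower in the Cry/Per_KO-labelled libraries (-1.59, SE 0.0821) and in Per/Nr1d_KO (-0.93, SE 0.0774) than in the Cry/Per/Nr1d_KO-labelled ones. Stc1, below the minimum with a mean of 99.3, had 62.1 and 85.5 normalized counts in the Cry/Per/Nr1d_KO-labelled libraries, 228 and 217 in the Cry/Per_KO-labelled ones, and 0 and 3.16 in Per/Nr1d_KO, the line with the most Pappa. Htra1, a serine protease with IGFBP5 among its substrates, was at 19111 to 20946 in the first 2 pairs and at 1236 and 1311 in Per/Nr1d_KO (-3.91, SE 0.0526, and -4.00, SE 0.0527). Adam12 and Adamts1, metalloproteases that can cut IGFBPs, were lowest in the Cry/Per_KO-labelled libraries. Against the Cry/Per/Nr1d_KO-labelled ones their log2 fold changes were -1.75 (SE 0.0684) and -1.04 (SE 0.0481), and Per/Nr1d_KO libraries exceeded the Cry/Per_KO-labelled ones by 2.25 (SE 0.0679) and 1.52 (SE 0.0479).

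**Figure D4:**
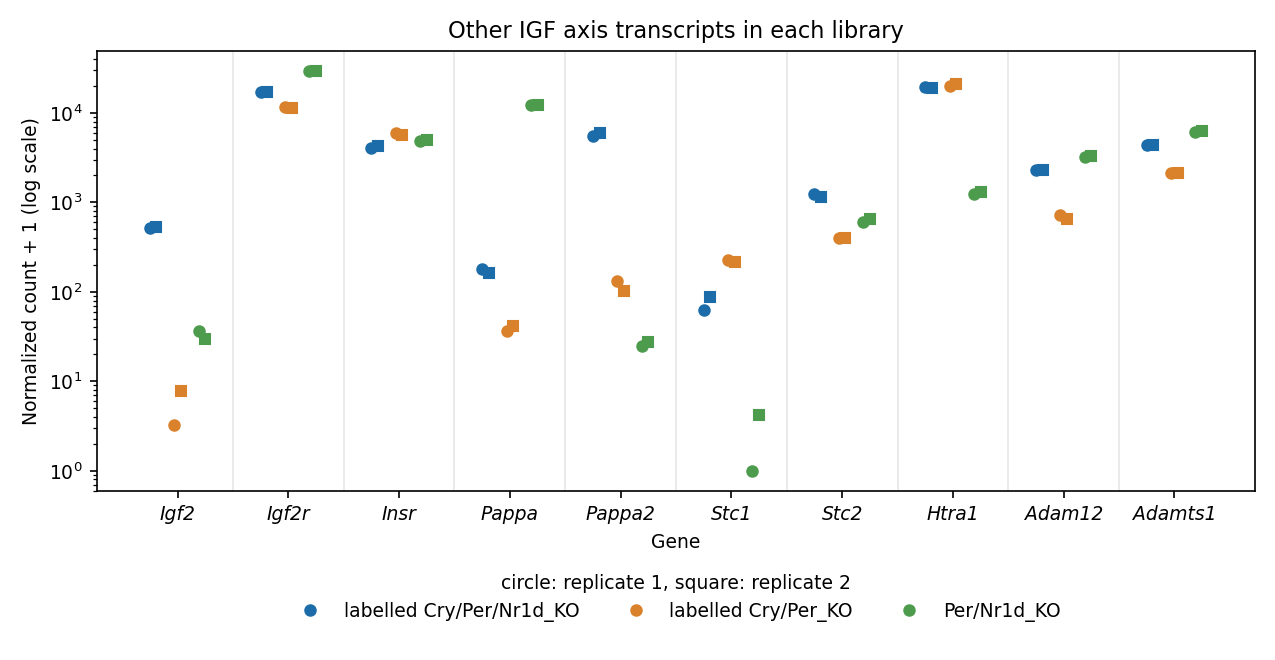
Normalized counts plus 1 on a log axis for other ligands, receptors, proteases and protease inhibitors of the IGF system, with 1 point per library, coloured by line as labelled. Pappa is at 12289 and 12405 in Per/Nr1d_KO and at 35.6 to 180 elsewhere, while Pappa2 is highest in the Cry/Per/Nr1d_KO-labelled libraries.

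Among 15 tested adaptor and feedback genes of 17, 0, 1 and 5 were called, where the 0 of edgeR stands beside 11 genes at an unadjusted p under 0.05 and 0 called by DESeq2. Socs1, a suppressor of cytokine and insulin signalling, was higher in Per/Nr1d_KO than in the Cry/Per/Nr1d_KO-labelled (0.98, SE 0.104) and Cry/Per_KO-labelled libraries (1.12, SE 0.106). Sh2b2, an adaptor of the insulin receptor, and Ptpn1, a phosphatase that acts on that receptor, were also higher in Per/Nr1d_KO than in the Cry/Per_KO-labelled libraries (1.06, SE 0.0946, and 1.01, SE 0.0518). The other 2 genes called there were Grb14, an adaptor that inhibits the insulin receptor, which was lower (-0.997, SE 0.0954, adjusted p = 1.08e-07), and the adaptor Shc1, which was higher (0.83, SE 0.0455). The median of chromosome 3, which carries Shc1, was 0.88 in that comparison, and with it subtracted Shc1 is at -0.053 and no longer past the fold limit, whereas Grb14 is at -1.07 with its own chromosome's median subtracted, a setting added for these 2 genes after the data were seen. Grb14 was at 0.78 in the Cry/Per_KO-labelled against the Cry/Per/Nr1d_KO-labelled libraries, where no gene of this list was called. With the same subtraction Grb14 is at 0.98 there, past the fold limit. Of 31 PI3K-AKT-mTOR-FOXO genes 30 were tested, and 1, 6 and 4 were called.

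Foxo1, a transcription factor held out of the nucleus by AKT, was highest in Per/Nr1d_KO, with 7483 and 7198 normalized counts against 2029 and 2292 in the Cry/Per/Nr1d_KO-labelled libraries and 1739.6 and 1723 in the Cry/Per_KO-labelled ones. Its log2 fold changes were 1.77 (SE 0.0583) and 2.08 (SE 0.0597). Foxo1 is also on chromosome 3, and the second value is 1.2 with the chromosome median subtracted. Per/Nr1d_KO libraries also had more Pik3r1, a regulatory subunit of PI3K, than the Cry/Per/Nr1d_KO-labelled ones (1.39, SE 0.0476), and less Phlpp1, a phosphatase of AKT, than both others (-1.37, SE 0.0578, and -1.38, SE 0.0579). Deptor, an inhibitor of mTOR, was lower in the Cry/Per_KO-labelled libraries than in the Cry/Per/Nr1d_KO-labelled ones (-0.82, SE 0.0915) and higher in Per/Nr1d_KO than in the Cry/Per/Nr1d_KO-labelled (1.17, SE 0.0791) and Cry/Per_KO-labelled libraries (1.99, SE 0.0857). Its first call was lost when either replicate 1 of those 2 pairs was left out (-0.80 and -0.76) and with chromosome medians subtracted (-0.53).

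**Figure D5:**
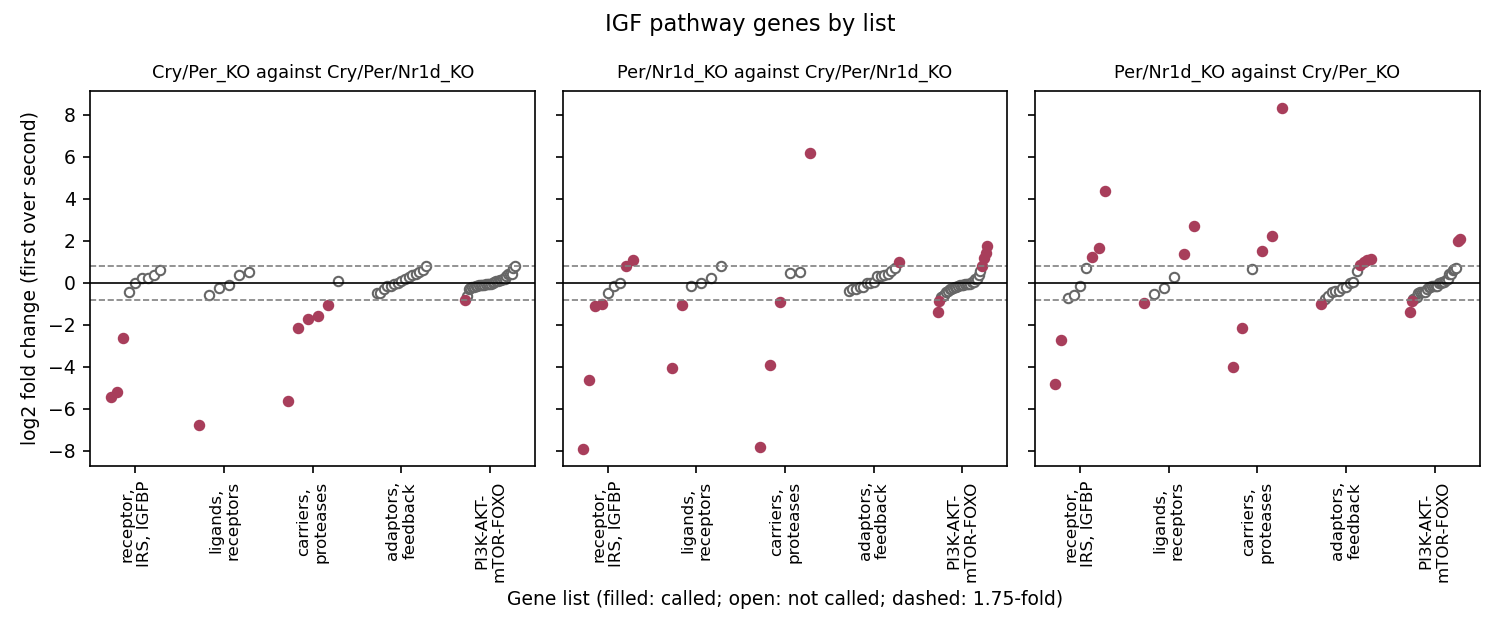
Log2 fold changes of every tested gene by list in the 3 comparisons, groups as labelled, filled where called and open where not, with dashed lines at the fold limit. The carriers and proteases reach from -7.79 to 8.34, whereas the PI3K-AKT-mTOR-FOXO genes mostly lie between the dashed lines.

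For each tested gene, the nearest patterns among 11755 other genes were found from the 3 line means of log2 CPM, each centred on the gene's own mean, by Euclidean distance. With only 3 lines such likeness is a description. Igfbp2 lay nearest to Pappa2 (distance 0.393) and to Lepr, the leptin receptor (0.642). Igf1 was nearest to Cyp26b1 (0.0657) and Klc3 (0.118), Igfbp3 to Nkd1 (0.637) and Unc93b1 (0.651), and Igfbp6 to Bhlhe41 (0.116), itself a circadian repressor, and Rab6b (0.125). For the flatter genes the nearest were Vcp and Rmc1 for Igf1r, Top2a and Rad51ap1 for Irs1, Micu2 and Pik3c2a for Irs2, Plekhg3 and Mettl21a for Igfbp4, and Firre and Sh2b3 for Igfbp7.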

How the data were processed

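RNA-seq counts of 6 libraries were used. Single-end reads of 50 bases were aligned to mm10 by the authors (STAR), summarised by gene (featureCounts) and deposited as whole-number counts with no normalization. The strand setting and the treatment of multi-mapping reads are not stated. The authors also deposited 2 DESeq2 tables of their own comparisons (fold changes and p-values), which were not used. Entrez Gene IDs were matched to RefSeq GRCm38.p6 (25275 of 27179, 93.0%), and exon lengths came from GENCODE vM21.

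Libraries were grouped by the recorded genotype. In R 4.3.3, edgeR 4.0.16 fitted all 6 libraries in one quasi-likelihood model with TMM normalization, for genes that averaged 100 or more normalized counts, and p-values were Benjamini-Hochberg adjusted over 11934 genes. The standard error is the log2 fold change divided by the square root of F. The biological coefficient of variation was 0.0393, and each SD would rest on 2 libraries. Alternatives were DESeq2 1.42.0, the study's own limit on adjusted p, median-of-ratios factors, a mean of at least 10 or no filter, no fold limit, exchanged labels, glmTreat against the fold limit, the compared groups alone, a replicate block, each library left out, and chromosome medians subtracted. On simulated data with 200 changed genes, edgeR recovered 200 with 0 false calls in the comparison of Per/Nr1d_KO with Cry/Per/Nr1d_KO (11931 genes).

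The genes, pathway lists and tests were chosen with earlier results of these data known. The text names all 10 genes, every called gene of the first 2 pathway lists, the called genes of the other 2 lists with the largest changes, the 2 nearest patterns of each tested gene, and, after their values were seen, Stc1, Insr, Ins1, Ins2, Grb14, Shc1 and the chromosomal neighbours of Igfbp2 and Igfbp5.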

Additional observations from a re-analysis of the deposited data

How the results depend on the processing

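Of 58 log2 fold changes of single genes, each recomputed under 13 alternatives, no called value changed direction and 3 changed their call. These 13 do not include the exchange of the names of the 2 pairs in doubt, which turns the sign of every difference between them (3 members and 7 pathway genes then called higher) and gives 5 and 6 members and 17 and 13 pathway genes in the comparisons of Per/Nr1d_KO with Cry/Per/Nr1d_KO and Cry/Per_KO. The 3 were Irs2 between Per/Nr1d_KO and the Cry/Per/Nr1d_KO-labelled libraries (0.71 to 0.85), Deptor and Irs1, as given above. Irs2 lost its call with DESeq2 (0.80), median-of-ratios factors (0.80), the compared groups alone (0.80), without Cry/Per/Nr1d_KO-labelled replicate 2 (0.80), without Per/Nr1d_KO replicate 1 (0.76) and with chromosome medians subtracted (0.71), and the cause was not tested.

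By genotype label, in the order Cry/Per_KO-labelled against Cry/Per/Nr1d_KO-labelled, Per/Nr1d_KO against Cry/Per/Nr1d_KO-labelled and Per/Nr1d_KO against Cry/Per_KO-labelled, 3, 6 and 5 members were called. Under the study's limit (DESeq2, adjusted p under 1e-22) the second count fell to 3, since Irs2 missed the fold limit and Igf1 and Igfbp3 the limit on p. Without the fold limit, the counts were 7 for the first comparison and 9 for the last, and 40, 45 and 50 pathway genes passed. Leaving out each library in turn gave 3 to 3, 5 to 6 and 5 to 5 members, and 7 to 8, 12 to 13 and 16 to 18 pathway genes. With the replicate number as a block the counts stayed at 3, 6 and 5 and at 7, 13 and 17. The deviations of same-numbered libraries correlated at -0.211, -0.102 and -0.024, so the numbers do not pair the libraries. Depth limits Igfbp5 in the lines with 2 reads.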
